A study of Mus musculus with 12 samples.

Results

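Blood vessels of the brain are lined by endothelial cells and wrapped by mural cells, that is, pericytes on capillaries and smooth muscle cells on arterioles. The RNA of 10 genes that mark these cells was followed in primary brain cultures of *Myt1l* mutant and control mice. The genes were given by name, in a choice made with earlier results of these data known. They were 6 endothelial genes (*Pecam1*, *Cldn5*, *Cdh5*, *Kdr*, *Flt1* and *Tek*) and 4 mural genes (*Pdgfrb*, *Rgs5*, *Acta2* and *Tagln*), out of 55397 genes in the count table. Cultures were made from newborn (P0) pups that the labels give as male and C57BL/6J, while the study's methods name C57BL/6N. Source tissue was cortex by the labels and hippocampus by the study's text on the cultures collected at day in vitro 11. Group HET was *Myt1l* (+/−), with 1 allele that carries a 7 bp deletion in exon 6 made with CRISPR/Cas9 in zygotes, a germline frameshift present in every cell. Group WT was *Myt1l* (+/+). All cultures grew in medium with B27 and serum (FBS), and all received 2 µM Ara-C, which kills dividing cells, 3 days after plating. There were 3 animals per genotype, numbered 505, 506 and 508 in HET and 510, 511 and 513 in WT, with 2 libraries per animal that were summed, so that an animal was 1 replicate. The labels do not say what set both libraries of an animal apart, nor which litters the animals came from.

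Endothelial cells sense vascular endothelial growth factor (VEGF) through the receptor tyrosine kinases encoded by *Kdr* and *Flt1*, and angiopoietins through the one encoded by *Tek*. They hold together through VE-cadherin (*Cdh5*), PECAM-1 (*Pecam1*) and, at the blood-brain barrier, claudin-5 (*Cldn5*). Pericytes carry the PDGF receptor beta (*Pdgfrb*) and the G protein regulator encoded by *Rgs5*, and smooth muscle cells are rich in smooth muscle actin (*Acta2*) and transgelin (*Tagln*), which fibroblasts, activated glia and other spread cells in culture can also make. No vessel is perfused in such a culture, and endothelial cells are a small fraction of the dissected tissue.

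Totals were 40642699 to 52833161 counts per animal, and levels are given as CPM, the count scaled to a common library total after TMM adjustment. A count of 0 allows a level of up to 3 counts, which is at most 0.0738 CPM in these animals. WT replicate 511 stood apart before any comparison. It held 18805 counts of *Xist*, the RNA of the inactive X chromosome, against 5 to 10 counts in the other 5 animals, although its label says male. *Myt1l* itself was at 89.0, 146 and 165 CPM in HET and 119, 147 and 109 CPM in WT (log2 fold change 0.09 ± 0.22 SE, edgeR adjusted p = 0.81), which does not check the labels, because the mutant RNA is stated not to decay.

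The cultures held abundant RNA of the contractile markers *Acta2* and *Tagln*, moderate levels of *Pdgfrb*, *Kdr* and *Rgs5*, and hardly any of the endothelial markers *Pecam1*, *Tek* and *Cldn5*, and no gene of the set passed the test between genotypes. Mean levels over the 6 animals ran from 348 CPM for *Acta2* and 317 CPM for *Tagln* down to 0.0247 CPM for *Cldn5*. *Pecam1* (0.487 CPM), *Tek* (0.358 CPM) and *Cldn5* were the 3 genes below 0.5 CPM on average, all endothelial, and the 4 mural genes were all above 10 CPM in every animal. Of the 10 genes, 9 passed the low-count filter, and *Cldn5* did not. At an adjusted p under 0.1, the quasi-likelihood test of edgeR called 0 of these 9, where it also called 0.0% of the 18264 genes tested. The smallest adjusted p of any gene was 0.166. An edgeR adjusted p near 0.17 thus covers quite different unadjusted values, such as 0.00046 for *Ocln* and 0.012 for *Kdr*. An unadjusted p under 0.05 was met by 1 of the 9 (*Kdr*, higher in HET) and by 0 in the other direction, beside 13.2% of all genes tested that were higher and 9.11% that were lower, so the set's share was near the background. In 1 of the 9 (*Kdr* again) all HET animals lay above all WT animals, and in 0 all lay below, beside 15.5% and 13.5% of all tested genes. Log2 fold changes of HET over WT were positive for 8 of the 9 (88.9%), beside 50.4% of all tested genes, with a median of 0.31 beside 0.0031. HET replicate 505 was the highest of the 6 animals for 8 of the 10 genes. Without it, 6 of the 9 were positive and the median was 0.11, whereas without WT replicate 511, 8 of the 9 were positive and the median was 0.23. The p-values measure the spread between animals of unknown litter, and in bulk RNA fewer cells of a type and less RNA per cell cannot be told apart.

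**Figure D1:**
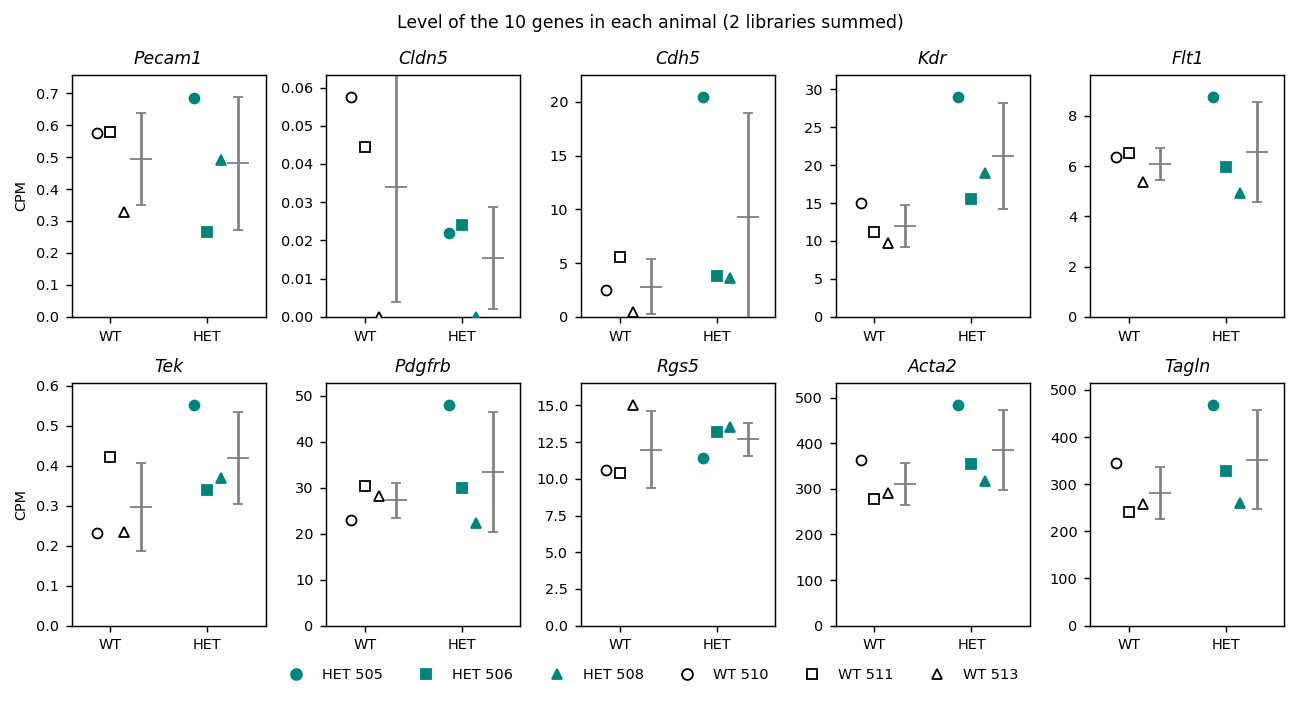
Level of each gene of the set in each animal, in CPM on a linear axis from 0 (both libraries of an animal summed). Filled symbols are HET and open symbols WT animals, and the grey bars are the mean ± SD of 3 animals (for *Cdh5* in HET the bar runs below the axis). HET replicate 505 (filled circle) is the highest animal in 8 of 10 panels, and *Kdr* is the panel in which the genotypes do not overlap.

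*Kdr* encodes VEGFR2, the receptor that drives endothelial growth and sprouting in response to VEGF-A, and lies on the minus strand at chr5:75932827-75978458 (mm10). Its level was 29.0, 15.6 and 19.0 CPM in HET replicates 505, 506 and 508 and 15.0, 11.2 and 9.76 CPM in WT replicates 510, 511 and 513, from 417 to 1317 counts per animal. All HET animals were above all WT animals, but HET replicate 506 and WT replicate 510 stood close together, at 15.6 with a 95% counting interval of 14.4 to 16.8 CPM and 15.0 with an interval of 14.0 to 16.1 CPM. The means were 21.18 ± 6.99 and 11.98 ± 2.73 CPM (SD, n = 3 each). This gave a log2 fold change of 0.82 ± 0.25 (SE), with an edgeR p of 0.012 and an adjusted p of 0.17, and the exact two-sided permutation test gave p = 0.1, the smallest that 3 animals against 3 allow. Other fits of the same counts did call it. DESeq2 gave an adjusted p of 0.039, in a fit that called 8.01% of genes as higher in HET, edgeR without the low-count filter gave 0.052 (3.16% called as higher), and limma voom on the 12 libraries gave 0.022 (11.9% called as higher). That last fit did not sum the libraries of an animal but took them as correlated, so libraries served partly as replicates. Over 17 alternatives the adjusted p ran from 0.022 to 0.49 and the log2 fold change stayed positive, at 0.53 without HET replicate 505. In the second libraries alone the genotypes overlapped, HET replicate 506 being below WT replicate 510.

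*Flt1* encodes VEGFR1, which binds VEGF-A tightly and signals weakly, so that it acts largely as a trap, and lies at chr5:147561604-147726011, also on the minus strand. It measured 8.77, 5.96 and 4.94 CPM in HET and 6.38, 6.54 and 5.36 CPM in WT. The genotypes overlapped fully, with HET replicate 505 the highest and HET replicate 508 the lowest animal. Its log2 fold change was 0.11 ± 0.22 (SE, edgeR adjusted p = 0.77), and without HET replicate 505 its sign turned, to -0.16. Per kilobase of exon, *Kdr* exceeded *Flt1* by 3.91 to 5.74 times in HET and by 2.55 to 3.52 times in WT. This ratio within each animal, which was chosen after the values were seen, did not overlap between the genotypes. *Kdr* alone also had no overlap, so the ratio is not a separate result.

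Both receptor genes, the barrier gene *Cldn5* and the actin gene *Acta2* have a promoter entry in RefSeq (GRCm38.p6, the same assembly as mm10), as do *Tek* and *Rgs5*, that is, 6 of the 10 genes. The 250 bases before the start site are shown for the VEGF receptor pair, of which *Kdr* was the gene without overlap, and for *Cldn5*, whose RNA was almost absent. Capitals mark the core of ETS factor sites (GGAA, or TTCC on the other strand), since ETS factors such as ERG act at endothelial promoters. The windows are chr5:75978456-75978705 (minus strand) for *Kdr*, chr5:147726012-147726261 (minus strand) for *Flt1* and chr16:18776597-18776846 (plus strand) for *Cldn5*, each read 5′ to 3′ with the start site just after the last base.
Kdr: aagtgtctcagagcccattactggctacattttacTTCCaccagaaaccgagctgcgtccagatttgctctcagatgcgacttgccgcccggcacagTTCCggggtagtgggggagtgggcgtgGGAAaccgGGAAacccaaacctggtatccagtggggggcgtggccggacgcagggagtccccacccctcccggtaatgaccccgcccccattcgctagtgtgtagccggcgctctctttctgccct
Flt1: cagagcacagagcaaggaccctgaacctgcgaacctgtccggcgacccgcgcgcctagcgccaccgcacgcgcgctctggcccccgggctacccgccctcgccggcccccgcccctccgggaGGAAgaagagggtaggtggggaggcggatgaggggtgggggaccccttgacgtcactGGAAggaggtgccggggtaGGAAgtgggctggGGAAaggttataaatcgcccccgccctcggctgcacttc
Cldn5: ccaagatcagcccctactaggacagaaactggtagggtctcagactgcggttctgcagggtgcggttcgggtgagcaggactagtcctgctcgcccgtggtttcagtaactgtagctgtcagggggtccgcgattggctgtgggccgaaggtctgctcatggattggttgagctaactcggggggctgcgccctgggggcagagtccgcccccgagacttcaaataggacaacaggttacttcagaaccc
The *Kdr* and *Flt1* windows each held 4 ETS cores, a number that 33.4% of 32851 promoter windows reach. In *Flt1* 3 of the 4 began within the last 71 bases before the start site, whereas the 4 of *Kdr* began 118 to 215 bases before it. The *Cldn5* window held none of these letters, while 93.4% of all windows hold at least 1. *Tek* held 2, *Rgs5* 3 and *Acta2* 3. The letters AAAGTT (or AACTTT), the core that MYT1 family factors such as MYT1L bind, occurred in 0 of the 6 windows, and 12.4% of all windows hold them. That motif was added after the values were seen, and the absence of letters from a window of this length says nothing about binding.

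RNA of VEGF-A, the main ligand of both receptors, was abundant, and its values were on the lower side in HET. *Vegfa* was at 352, 326 and 261 CPM in HET and 471, 404 and 326 CPM in WT, with HET replicate 505 above WT replicate 513. Its log2 fold change was -0.36 ± 0.17 SE (edgeR adjusted p = 0.25, 0.049 to 0.53 over the 17 alternatives). *Vegfb*, whose product binds VEGFR1, was at 27.7, 33.6 and 31.1 CPM in HET and 47.3, 41.3 and 35.4 CPM in WT. All HET animals lay below all WT animals for *Vegfb*, at a log2 fold change of -0.43 ± 0.13 (edgeR adjusted p = 0.17, DESeq2 adjusted p = 0.059, 0.016 to 0.49 over the 17 alternatives). *Pgf*, encoding another VEGFR1 ligand, was lower as well in value, at -0.41 ± 0.19 with overlapping animals. Of the 5 VEGF ligand genes, all were tested, 1 was positive and 4 were negative, edgeR called 0, and DESeq2 called 1 as lower (*Vegfb*), in a fit that called 4.57% of all genes as lower. The neuropilins, coreceptors that axons also use for guidance, were at 73.4 to 154 CPM for *Nrp2* (log2 fold change -0.55 ± 0.20, edgeR adjusted p = 0.19, DESeq2 adjusted p = 0.091, 0.020 to 0.51 over the 17 alternatives) and 85.6 to 134 CPM for *Nrp1* (-0.25 ± 0.13), with overlap in both. *Flt4*, the lymphatic VEGF receptor, stayed between 0.234 and 0.442 CPM.

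*Cdh5* encodes VE-cadherin, the adhesion molecule of endothelial junctions, at chr8:104101625-104144511 on the plus strand, and was the gene of the set that varied most between animals. Its level was 20.5, 3.79 and 3.61 CPM in HET and 2.52, 5.54 and 0.421 CPM in WT, or 930 counts in HET replicate 505 and 18 in WT replicate 513. The highest animal was thus 48.6 times the lowest, where the other tested genes of the set varied 1.44 to 2.97 times. HET replicates 506 and 508 lay between WT replicates 510 and 511. Between genotypes the log2 fold change was 1.72 with an SE of 0.91 (edgeR adjusted p = 0.28), and it fell to 0.39 without HET replicate 505 and reached 2.63 without WT replicate 511. In limma voom on 12 libraries it was 1.84 with an adjusted p of 0.098, which was 0.12 with library number as a replicate block; over the 17 alternatives the adjusted p ran from 0.098 to 0.80. Both libraries of each animal repeated its level, with 492 and 438 counts in HET replicate 505 and 8 and 10 in WT replicate 513. A predicted gene on the other strand, *Gm29682*, overlaps *Cdh5* and held 1 count in all animals.

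*Pecam1* encodes PECAM-1 (CD31), the pan-endothelial adhesion molecule, at chr11:106654217-106750628 on the minus strand. It was at 0.683, 0.266 and 0.492 CPM in HET and 0.576, 0.579 and 0.328 CPM in WT, from 11 to 31 counts per animal, and 3 of the 6 animals were below 0.5 CPM. Counting intervals of the highest (0.464 to 0.970 CPM) and the lowest animal (0.133 to 0.475 CPM) overlapped. The log2 fold change was -0.04 ± 0.40 (SE, edgeR adjusted p = 0.95), and its sign changed with the animals left out. *Cdh5* and *Pecam1* therefore did not keep a common proportion: per kilobase of exon, *Cdh5* was 44.5 times *Pecam1* in HET replicate 505 and 1.91 times in WT replicate 513.

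*Cldn5* encodes claudin-5, the tight junction protein that seals brain endothelium, at chr16:18776847-18778262 on the plus strand. It held 1, 1 and 0 counts in HET and 3, 2 and 0 counts in WT. The 0 counts of HET replicate 508 and WT replicate 513 allow up to 0.0738 and 0.0702 CPM (3 counts). Every animal was at or under 3 counts, so no fold was computed, and a difference was not detectable at this depth. These intervals and limits cover counting error only.

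Genes named for barrier transport and tight junctions, several of which other brain cells also use, were measured well. All 14 genes of that list passed the filter and 0 were below 0.5 CPM on average, with *Slc2a1*, the glucose transporter GLUT1, at 220 to 339 CPM. *Ocln*, encoding the tight junction protein occludin of endothelium and epithelium, was at 15.7, 13.7 and 15.3 CPM in HET and 10.2, 8.68 and 9.32 CPM in WT. Here the genotypes stood well apart, with a log2 fold change of 0.66 ± 0.11 (SE), an edgeR adjusted p of 0.17 and a DESeq2 adjusted p of 0.00036 (0.00036 to 0.49 over the 17 alternatives). *Tjp1*, for the junction scaffold ZO-1, was also above WT in all HET animals (0.71 ± 0.25, edgeR adjusted p = 0.19, DESeq2 adjusted p = 0.070, 0.010 to 0.51 over the 17 alternatives). *Slc7a5*, the large neutral amino acid transporter, was below WT in all HET animals (-0.49 ± 0.11, edgeR adjusted p = 0.17, DESeq2 adjusted p = 0.0067, 0.0025 to 0.49 over the 17 alternatives). *Tfrc*, the transferrin receptor, overlapped at 178 CPM in HET replicate 506 and 175 CPM in WT replicate 513 (-0.83 ± 0.24, edgeR adjusted p = 0.17, DESeq2 adjusted p = 0.024, 0.0063 to 0.49 over the 17 alternatives). DESeq2 called 3 of the 14 as higher and 2 as lower, beside 8.01% and 4.57% of all genes in that fit, and edgeR called 0.

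*Tek* encodes TIE2, the angiopoietin receptor that keeps vessels quiescent, at chr4:94739289-94874976 on the plus strand. It was at 0.551, 0.338 and 0.369 CPM in HET and 0.231, 0.423 and 0.234 CPM in WT, from 10 to 25 counts per animal, with 5 of the 6 animals below 0.5 CPM. Only WT replicate 511 kept the genotypes from separating, since it lay above HET replicates 506 and 508. The log2 fold change was 0.51 ± 0.37 (SE, edgeR adjusted p = 0.40). Its partner receptor gene *Tie1*, chosen after its values were seen, held 6, 2 and 1 counts in HET and 0 in each WT animal. The ligands were far above the receptor. *Angpt1*, for the TIE2 agonist that mural cells and other stromal cells secrete, was at 71.3, 50.1 and 53.0 CPM in HET and 33.7, 36.1 and 49.3 CPM in WT, all HET animals lying above all WT animals (log2 fold change 0.55 ± 0.18, edgeR adjusted p = 0.18, DESeq2 adjusted p = 0.076, 0.011 to 0.50 over the 17 alternatives). *Angpt2*, for the context-dependent antagonist, was at 9.59 to 31.4 CPM and overlapped (0.59 ± 0.40, and -0.04 without HET replicate 505).

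The labelled cultures are neuronal, and the endothelial label of the 6 genes was checked against 22 other endothelial genes. Of these, 15 passed the filter and 11 were below 0.5 CPM on average. The transcription factor gene *Sox17* held 1 count in all 6 animals together, *Icam2* 1, *Myct1* 4, *Erg* 15 and *Robo4* 23, so these genes were at or near 0. Other endothelial genes of the list were measured, with means of 8.34 CPM for *Eng*, 5.93 for *Plvap*, 2.25 for *Nos3*, 2.08 for *Esam* and 1.61 for *Vwf*. Both groups of genes were named after their values were seen. The best measured were *Ramp2*, a receptor partner used by many cell types, at 56.4 to 64.0 CPM, *Cd34*, also on stromal progenitors, at 26.97 to 35.2 CPM, and *Egfl7* at 7.12 to 15.8 CPM. *Egfl7* was lower in value in HET, with overlap (log2 fold change -0.57 ± 0.21, edgeR adjusted p = 0.19, 0.046 to 0.51 over the 17 alternatives). *Ecscr* was the gene of this list with the smallest p, at 1.498, 1.04 and 1.01 CPM in HET and 0.692, 0.601 and 0.538 CPM in WT, without overlap (0.95 ± 0.26, edgeR adjusted p = 0.17, DESeq2 adjusted p = 0.065, 0.065 to 0.49 over the 17 alternatives). In 4 of the 15 tested genes all HET animals were above all WT animals and in 2 below, beside the 15.5% and 13.5% of all tested genes. The summed level of the 22 genes was 119 to 135 CPM in HET and 124 to 130 CPM in WT. *Ramp2* and *Cd34*, with means of 60.8 and 30.4 CPM, made up most of it. Since other cells use both genes, the sum says little about endothelial RNA. Red blood cell RNA was near 0, with a sum over 6 genes of 0.132 to 0.295 CPM in HET and 0.250 to 0.515 CPM in WT.

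**Figure D2:**
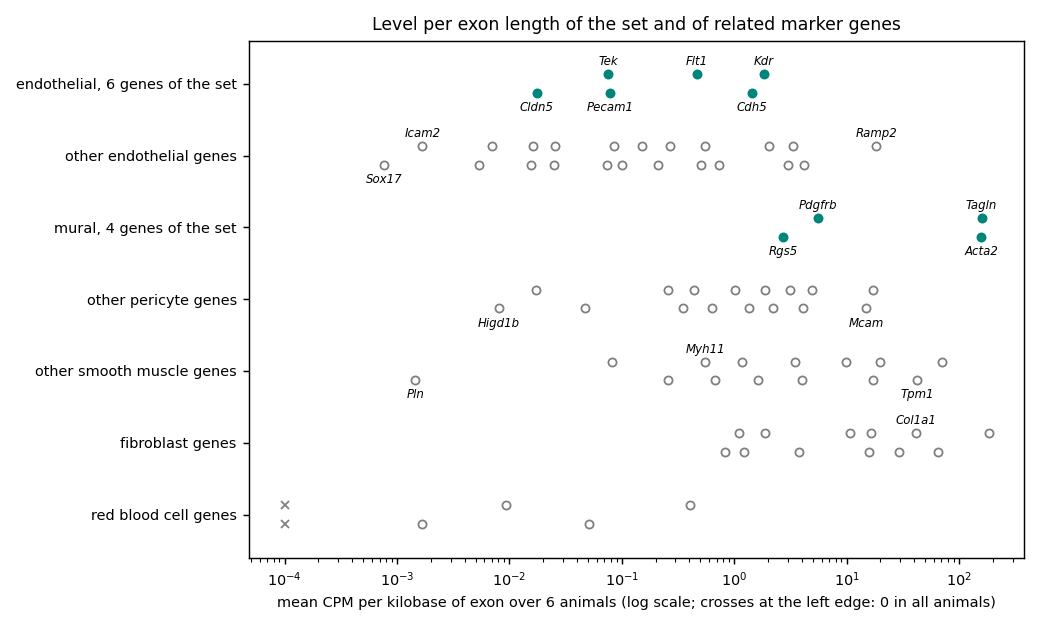
Mean level over 6 animals per kilobase of exon, on a log axis, for the genes of the set (filled) and for other marker genes (open), 1 row per gene list; crosses at the left edge are genes at 0 in all animals. *Acta2* and *Tagln* lie at 158 and 159, while *Cldn5*, *Pecam1* and *Tek* lie below 0.1.

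*Acta2* and *Tagln* were the abundant genes of the set and ran in parallel over the animals. *Acta2*, on the minus strand at chr19:34241090-34255590, was at 483, 355 and 317 CPM in HET and 364, 278 and 291 CPM in WT. *Tagln*, encoding the actin-binding protein SM22, on the minus strand at chr9:45929619-45936058, was at 467, 327 and 261 CPM in HET and 345, 242 and 258 CPM in WT. Both genes put the 6 animals in the same order (HET 505, WT 510, HET 506, HET 508, WT 513, WT 511), and only WT replicate 510 kept the genotypes from separating. The log2 fold change was 0.31 ± 0.18 for *Acta2* (edgeR adjusted p = 0.32) and 0.32 ± 0.23 for *Tagln* (edgeR adjusted p = 0.39). In limma voom on 12 libraries *Acta2* was called, at 0.30 with an adjusted p of 0.097, and with library number as a replicate block it was not, at 0.12. The SE in the first of these fits was 0.12, against 0.18 for the 6 summed animals, because libraries of 1 animal served there partly as replicates. Over the 17 alternatives the adjusted p ran from 0.097 to 0.69. Per kilobase of exon the ratio of *Acta2* to *Tagln* stayed between 0.936 and 1.098 in all 6 animals. *Pcsk7* overlaps *Tagln* on the other strand with 4322 counts against 85198, and whether the counting used strand was not given in the sources used here.

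Smooth muscle and muscle actin promoters are known for CArG boxes, the sites of serum response factor (SRF), so the *Acta2* window is shown as well, at chr19:34255374-34255623 on the minus strand. RefSeq places this start site downstream of the one in the count table, so that 217 of the 250 bases lie inside the gene span given there. Capitals mark CArG-like stretches that differ from the box by 1 of its 6 middle bases.
Acta2: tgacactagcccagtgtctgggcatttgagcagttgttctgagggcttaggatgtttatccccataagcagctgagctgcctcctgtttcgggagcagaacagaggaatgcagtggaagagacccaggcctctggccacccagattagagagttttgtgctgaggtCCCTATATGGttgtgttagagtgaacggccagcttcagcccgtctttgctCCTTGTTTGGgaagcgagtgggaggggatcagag
The window held 2 such stretches, beginning 84 and 34 bases before the start site. An exact CArG box occurred in 0 of the 6 windows and in 1.47% of all windows, and a box allowing 1 such difference occurred in 8.59%. The relaxed form was searched after the sequence was seen, and *Kdr* also held 1. Of 10 genes listed for SRF and its actin-sensing cofactors, all were tested, at a median log2 fold change of 0.04. Of these, edgeR and DESeq2 called 0, where DESeq2 called 8.01% of all genes as higher and 4.57% as lower. The 3 genes of the factors themselves (*Srf*, *Mrtfa* and *Mrtfb*) were negative, and of the 7 target genes 6 were positive and 1 negative, with a median of 0.26. This split of the list was not planned, and 50.4% of all tested genes were positive. Without HET replicate 505, *Vcl* (-0.07), *Ccn1* (-0.20) and *Cnn2* (-0.17) were negative. The target genes *Actn1*, *Flna*, *Ccn2* and *Tagln2* stayed positive (0.13 to 0.43). *Actn1*, for alpha-actinin, had the smallest p of the list, at 411, 324 and 313 CPM in HET and 283, 264 and 301 CPM in WT. Its genotypes did not overlap (0.31 ± 0.13, edgeR adjusted p = 0.22, 0.033 to 0.55 over the 17 alternatives). *Ccn1*, among the most abundant of them, was at 386 to 594 CPM in HET and 393 to 637 CPM in WT (-0.03 ± 0.22). *Flna*, for the actin crosslinker filamin A, was at 902, 684 and 677 CPM in HET and 649, 528 and 692 CPM in WT, with overlap (0.28 ± 0.16).

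Among 14 other smooth muscle genes, 13 passed the filter, and 0 were called by edgeR and 1 by DESeq2 (beside 8.01% of all genes called as higher). Of the 13, 12 were positive, beside 50.4% of all tested genes, with a median log2 fold change of 0.28. Without HET replicate 505 the 13 were split. *Myh11*, *Tpm2*, *Mylk*, *Myocd*, *Smtn*, *Actg2* and *Des* were negative (-0.57 to -0.01). *Cnn1*, *Tpm1*, *Myl9*, *Lmod1*, *Cald1* and *Synpo2* were positive (0.03 to 0.49). The general cytoskeletal members led, with *Tpm1* at 359, 280 and 250 CPM in HET and 255, 263 and 245 CPM in WT (0.22 ± 0.14). *Synpo2*, for an actin-binding protein of muscle and other cells, had the smallest p (0.63 ± 0.23, edgeR adjusted p = 0.19, DESeq2 adjusted p = 0.081, 0.013 to 0.51 over the 17 alternatives), with 66.0, 44.5 and 54.9 CPM in HET and 31.4, 27.3 and 47.8 CPM in WT. Levels of the list varied widely. The contractile genes *Myl9* (82.0 CPM), *Cnn1* for calponin (47.4 CPM), *Lmod1* (15.8 CPM) and *Mylk* (13.3 CPM) were well measured on average, while *Myh11*, for the smooth muscle myosin heavy chain, averaged 4.20 CPM, the coactivator gene *Myocd* 0.521 CPM, and *Pln* held 1 count in all (all but *Myl9* named after their values were seen). Per kilobase of exon *Acta2* exceeded *Myh11* by 214 to 351 times. The summed level of the 14 genes was 695 to 1044 CPM in HET and 652 to 704 CPM in WT, with HET replicate 505 the highest. That animal was also the highest for 12 fibroblast genes (*Thy1*, which neurons also express, among them), which summed to 1718 to 3483 CPM in HET and 1660 to 2403 CPM in WT, but WT replicate 511 was the lowest for the smooth muscle sum and the second highest for the fibroblast sum. The part of fibroblasts or other cells in these levels was not tested.

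*Pdgfrb* encodes the receptor through which endothelial PDGF-B recruits pericytes, and fibroblasts carry it too. Its gene lies at chr18:61045150-61085061 on the plus strand. It was at 47.9, 29.9 and 22.4 CPM in HET and 23.1, 30.4 and 28.3 CPM in WT. HET animals took both the highest and the lowest place. The log2 fold change was 0.30 ± 0.26 (SE, edgeR adjusted p = 0.48) and turned to -0.06 without HET replicate 505. Of the PDGF ligands and the alpha receptor, 5 of 5 were tested and 0 were called by edgeR or DESeq2. Among all genes, DESeq2 called 8.01% as higher and 4.57% as lower. *Pdgfb*, for the ligand, was at 36.7 to 44.8 CPM in HET and 40.9 to 46.1 CPM in WT (-0.10 ± 0.10). *Pdgfra*, the receptor gene of fibroblasts and oligodendrocyte precursors, was at 28.2, 5.94 and 5.24 CPM in HET and 2.96, 5.07 and 2.01 CPM in WT, without overlap (1.97 ± 0.68, edgeR adjusted p = 0.18, 0.051 to 0.49 over the 17 alternatives). HET replicate 505 stood far above the rest, and the log2 fold change without it was 0.74.

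*Rgs5*, a regulator of G protein signalling and a classic pericyte marker, lies at chr1:169655501-169695813 on the plus strand. It was the steadiest gene of the set, at 11.4, 13.2 and 13.5 CPM in HET and 10.6, 10.4 and 15.0 CPM in WT. Unlike for 8 of the other genes, HET replicate 505 was not the highest here, and WT replicate 513 was. The means were 12.69 ± 1.118 and 11.996 ± 2.61 CPM (SD, n = 3 each), with a log2 fold change of 0.08 ± 0.17 (SE, edgeR adjusted p = 0.77). The value turned to -0.01 without WT replicate 510 or 511. Consequently *Pdgfrb* and *Rgs5* did not keep pace, *Pdgfrb* being 3.49 times *Rgs5* per kilobase in HET replicate 505 and 1.38 to 2.42 times in the other 5 animals.

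Other pericyte genes were mixed in level. Of 16, 14 passed the filter, 10 were positive and 4 negative, 3 were below 0.5 CPM on average, edgeR called 0 and DESeq2 1, beside 8.01% of all genes called as higher. *Vtn*, encoding vitronectin, which brain pericytes express at high levels, was at 25.8, 9.92 and 8.75 CPM in HET and 5.76, 5.88 and 3.91 CPM in WT. All HET animals were above all WT animals (log2 fold change 1.52 ± 0.42, edgeR adjusted p = 0.17, DESeq2 adjusted p = 0.0070, 0.0070 to 0.49 over the 17 alternatives). Without HET replicate 505 the value for *Vtn* was 0.85. *Mcam* led in level at 40.5 to 59.7 CPM with overlap (-0.06 ± 0.18), as did *Notch3*, a receptor of mural cells that astrocytes also express, at 21.3 to 30.2 CPM (0.03 ± 0.16). The pericyte channel subunit gene *Abcc9* held 10 to 21 counts per animal and *Higd1b* held 2 in all 6 animals together. *Tbx18*, a transcription factor gene of mural cells and meningeal fibroblasts, put the animals in the same order as *Cdh5* (HET 505, WT 511, HET 506, HET 508, WT 510, WT 513), from 668 counts down to 60. These 3 genes were named after their values were seen.

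Transforming growth factor beta (TGF-beta) receptors, which act in both vessel cell types and in many others, had positive fold changes. Of 8 TGF-beta and BMP genes with vascular roles, 8 were tested, 0 called by edgeR and 1 by DESeq2 (beside 8.01% of all genes called as higher). Of the 8, 7 were positive, beside 50.4% of all tested genes (median log2 fold change 0.36). *Tgfbr2* was at 72.7, 45.3 and 48.2 CPM in HET and 32.8, 31.5 and 39.5 CPM in WT, without overlap (0.68 ± 0.19, edgeR adjusted p = 0.17, DESeq2 adjusted p = 0.028, 0.0063 to 0.49 over the 17 alternatives). *Eng*, for the coreceptor endoglin of endothelium, fibroblasts and macrophages, was at 18.6, 8.11 and 6.02 CPM in HET and 5.36, 6.92 and 5.03 CPM in WT. Its genotypes overlapped (0.92 ± 0.39, edgeR adjusted p = 0.22, 0.099 to 0.50 over the 17 alternatives). Without HET replicate 505 the log2 fold change was 0.29 for *Eng* and 0.43 for *Tgfbr2*. The ligand genes *Tgfb1* (-0.008), *Tgfb2* (-0.15) and *Tgfb3* (-0.003) were then negative, and *Tgfbr1*, *Tgfbr3* and *Acvrl1* positive (0.04 to 0.21).

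**Figure D3:**
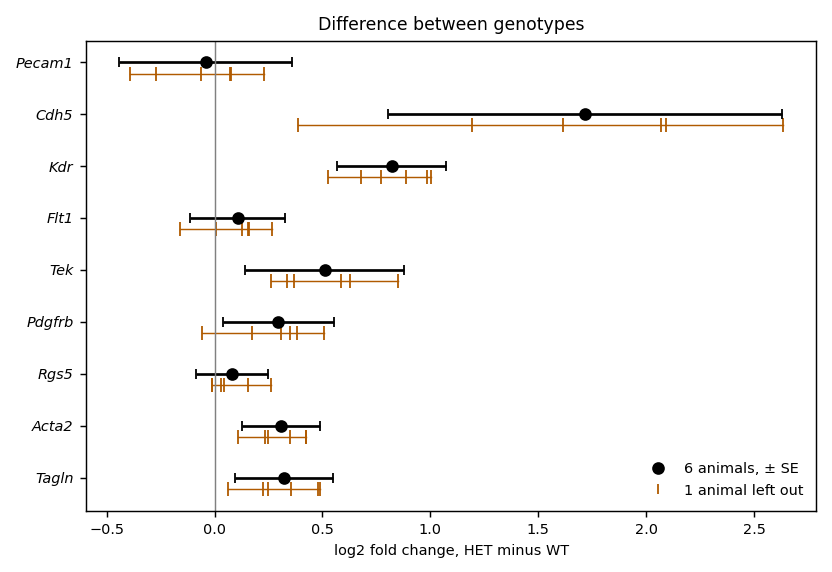
Log2 fold change of HET over WT for the 9 genes of the set that passed the filter, with the SE of the edgeR fit (black), and the values when each of the 6 animals is left out in turn (orange ticks, the line being their range). *Cdh5* spans 0.39 to 2.63 and *Kdr* 0.53 to 1.00, while the ranges of *Pecam1*, *Flt1*, *Pdgfrb* and *Rgs5* cross 0.

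Ordered by mean level per kilobase of exon over the 6 animals, the set read *Tagln* (159), *Acta2* (158), *Pdgfrb* (5.54), *Rgs5* (2.72), *Kdr* (1.84), *Cdh5* (1.44), *Flt1* (0.468), *Pecam1* (0.0782), *Tek* (0.0759) and *Cldn5* (0.0175). Neighbours in this order whose animals did not overlap were *Acta2* above *Pdgfrb*, *Pdgfrb* above *Rgs5*, *Flt1* above *Pecam1* and *Tek* above *Cldn5*. The other neighbours overlapped, *Tagln* and *Acta2*, *Rgs5* and *Kdr*, *Kdr* and *Cdh5*, *Cdh5* and *Flt1*, and *Pecam1* and *Tek*. Among the genes tested, *Acta2* and *Tagln* were at the 98.8th percentile of this level, *Pdgfrb* at the 57.6th, *Kdr* at the 33.6th, and *Pecam1* and *Tek* near the bottom, with *Tek* at percentile 1.41. Against *Pecam1*, *Kdr* was 26.6 to 40.4 times as high per kilobase in HET and 13.3 to 20.5 times in WT, without overlap (a ratio chosen after the values were seen). *Pecam1* held only 11 to 31 counts per animal, and the counting error of this ratio is not given here. *Kdr* alone also had no overlap.

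HET replicate 505, the highest animal for 8 genes of the set, was also the highest for several lists of other non-neuronal cells. For the sum of the 22 other endothelial genes it was not the highest, at 132 CPM beside 135 CPM in HET replicate 506. It was at 2.86 on the log2 scale relative to the WT mean for *Cdh5*, 1.28 for *Kdr* and 0.64 for *Acta2*. In the same animal the sum of 12 fibroblast genes was at 0.81, of 6 border macrophage genes at 1.83, of 10 microglia genes at 1.123 and of 7 choroid plexus genes at 3.25, and the sum of 10 neuronal genes was at -1.04. Border macrophage genes summed to 33.7 to 83.8 CPM in HET and 14.8 to 39.9 CPM in WT, where WT replicate 511, the second highest animal for *Cdh5*, was also the highest WT animal. Choroid plexus genes summed to 380 to 1414 CPM in HET and 82.4 to 248 CPM in WT, and microglia genes to 164 to 282 and 117 to 141 CPM, both without overlap. WT replicate 510, second highest for *Acta2* and *Tagln* (0.23 and 0.29 on the same log2 scale), was below the WT mean for border macrophage (-0.67), microglia (-0.14) and fibroblast genes (-0.06). Neuronal genes summed to 2327 to 4408 CPM in HET and 4460 to 5196 CPM in WT, without overlap, and astrocyte genes to 11526 to 12674 and 8309 to 12678 CPM. The part of these cell types in the values of *Kdr*, *Cdh5* and the contractile genes was not tested.

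**Figure D4:**
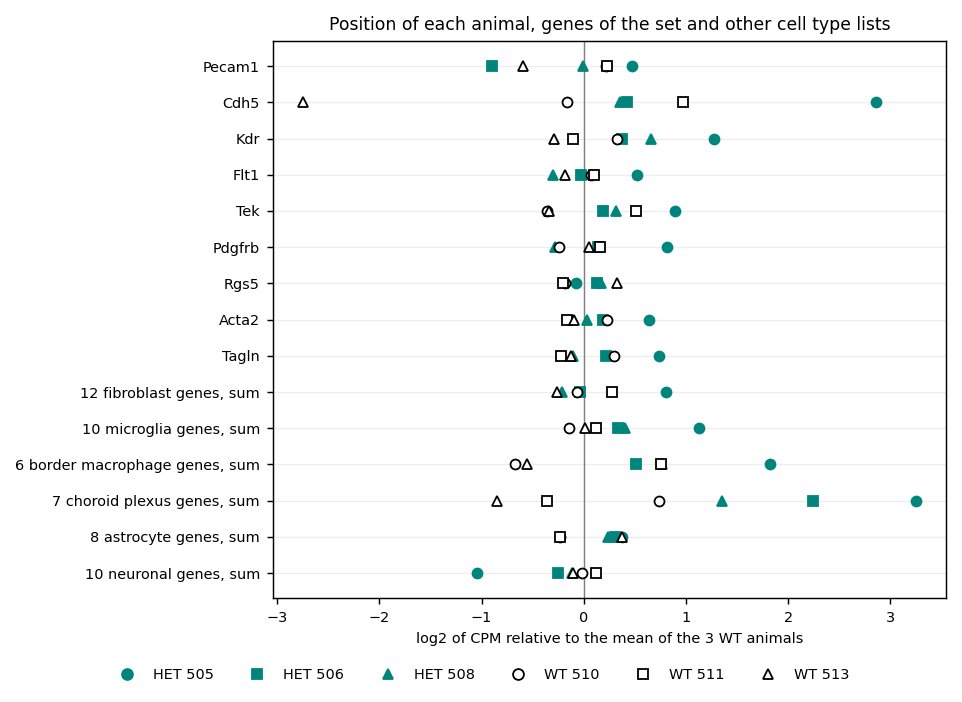
Position of each animal for 9 genes of the set and for the summed CPM of 6 lists of other cell types, as the log2 of its CPM relative to the mean of the 3 WT animals. HET replicate 505 (filled circle) lies farthest right for most genes of the set and for the fibroblast, macrophage, microglia and choroid plexus sums, and farthest left, at -1.04, for the neuronal sum.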

How the data were processed

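RNA of 12 libraries from 6 animals was analysed. The values used are raw counts per gene that the authors made by mapping reads with STAR (build mm10, dUTP libraries, which mark strand) and deposited for each library. For the counting tool and its strand setting, nothing is given in the sources used here. Further files of the authors hold normalised counts and a table of their own fold changes and p-values from DESeq2, neither of which was used. Genotype, animal and library number came from the labels. Both libraries of each animal were added up. Library totals were 20181477 to 26594444 counts, and over the values of at least 100 counts the CPM of both libraries of an animal differed 1.00 to 1.41 times (median 1.03).

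HET and WT were compared in R 4.3.3 with edgeR 4.0.16 (filterByExpr, leaving 18264 genes, TMM, quasi-likelihood test, Benjamini-Hochberg over all genes tested, adjusted p under 0.1, the threshold of the study), and single values by exact permutation tests in scipy 1.17.1. CPM was divided by the TMM-scaled total, and levels per kilobase by the exon length of the deposited table. Low counts have exact Poisson 95% intervals. edgeR called 0 genes, with 2416 higher and 1664 lower at an unadjusted p under 0.05, while DESeq2 1.42.0 called 2163. Alternatives were DESeq2, its size factors, library totals, other filters, limma voom (limma 3.58.1) on 12 libraries, either library alone, genetic sex as covariate and each animal left out. Genetic sex, read from *Xist*, separated only WT replicate 511 from the others. The script was tested on simulated data. Promoters are RefSeq's, build GRCm38.p6.

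The members and gene lists were chosen with earlier results of these data known. Named were the 10 genes, the 3 most abundant genes of each list, of the vascular, VEGF, angiopoietin, PDGF, TGF-beta and SRF lists also the 3 with the smallest p, *Myt1l* and *Xist*; not all of these are printed, and exceptions are marked.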

Additional observations from a re-analysis of the deposited data

How the results depend on the processing

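The number of genes called moved with the method: 0 in edgeR, 2163 in DESeq2, 4176 in limma voom on 12 libraries, 3797 with library number as a replicate block there, 1475 in edgeR without the low-count filter, and 0 to 3403 when each animal was left out, the 3403 without WT replicate 513. The other alternatives called 0. Library numbers mark 2 libraries of 1 animal and do not pair animals across genotypes. Genetic sex, read from *Xist*, set WT replicate 511 alone apart. That covariate was therefore close to leaving WT replicate 511 out (*Cdh5* 2.64 and 2.63) and is not a separate check. The smallest adjusted p of any gene in the edgeR fit with genetic sex was 0.49. *Kdr* was called by DESeq2 (log2 fold change 0.81), limma voom (0.79), the replicate block (0.79) and edgeR without the filter (0.81), and ranged from 0.53 to 1.00 with an animal left out. *Cdh5* (1.84) and *Acta2* (0.30) were called in limma voom without the block alone. Both limma voom fits kept the 2 libraries of an animal apart, as correlated values, so libraries served partly as replicates. Signs turned for *Pecam1* with the first libraries alone (0.10), with genetic sex (0.079) and over the animals left out (-0.39 to 0.23), for *Rgs5* with genetic sex (-0.011) and over the animals left out (-0.012 to 0.26), and over the animals left out for *Flt1* (-0.16 to 0.27) and *Pdgfrb* (-0.058 to 0.51). The same ranges were 0.39 to 2.63 for *Cdh5*, 0.26 to 0.85 for *Tek*, 0.11 to 0.42 for *Acta2* and 0.06 to 0.49 for *Tagln*. Genes of the set without overlap numbered 1, but 0 in the second libraries alone and 1 to 3 with an animal left out. They numbered 3 without WT replicate 510 (*Kdr*, *Acta2*, *Tagln*), 511 (*Cdh5*, *Kdr*, *Tek*) or 513 (*Cldn5*, *Kdr*, *Rgs5*). With 2 animals in a group the absence of overlap is met more easily, and its share over all tested genes is not given here. *Cldn5*, which did not pass the filter, was the lower in HET without WT replicate 513, at no more than 3 counts in any animal. The number below 0.5 CPM was 3, and 2 in the second libraries alone. *Tek* could not be tested with 1 library per animal or a filter of 0.5 CPM. The newer quasi-likelihood method of edgeR and the overlap counts with an animal left out were added after the data were seen. The cause of these changes was not tested. Depth limits *Cldn5*, *Pecam1* and *Tek*, with at most 31 counts per animal.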
